A study of Homo sapiens with 12 samples.

Results

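FX1 was compared with its vehicle, dimethyl sulfoxide (DMSO), in the GFP-low gate of Raji cells by RNA sequencing of bulk RNA. Raji is a Burkitt lymphoma B-cell line that carries Epstein-Barr virus and a MYC gene translocated to an immunoglobulin locus. The comparison used the 6 libraries labelled GFP-low of the 12 in the series, 3 treated with FX1 and 3 with DMSO, all at 24 h. The other 6 libraries, 3 FX1 and 3 DMSO, came from the GFP-high gate at the same time. All 12 libraries carry the labelled genotype Smarca4+/+, and the design text places the experiment in an auxin-inducible degron line in which SMARCA4 protein can be degraded. The labels do not say which protein GFP reports, which gate holds degraded SMARCA4, whether auxin was given to the GFP-low libraries, what the FX1 dose was, or whether the line is a single clone. Counts were given for 60707 genes, and 17859 of them passed the filter on low counts and are the genes described here.

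BCL6 is a transcriptional repressor that germinal centre B cells require, and it silences genes of cell-cycle arrest, DNA damage sensing, signal-driven activation and plasma cell differentiation. It does so by recruiting corepressors such as NCOR1 and BCOR to a groove of its BTB domain, and FX1 is a small molecule designed to occupy that groove. SMARCA4, also called BRG1, is an ATPase of the SWI/SNF complexes, which move nucleosomes and so open or close regulatory DNA.

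The 12 libraries held between 20454028 and 42556661 counts. Levels below are counts in CPM, a share of the library's total scaled to a fixed depth, after TMM scaling, which sets each library against the bulk of its genes; a change is therefore relative to the other transcripts, and in bulk RNA fewer cells of a type and less RNA per cell cannot be told apart. Changes are log2 FX1 over DMSO with a standard error, and a gene is called when edgeR's quasi-likelihood test gave a Benjamini-Hochberg adjusted p under 0.05 over all genes tested. Pairs of libraries of the same GFP-low group had a chi-square per degree of freedom of 1.74 to 2.08, where sampling noise alone gives 1, and the fitted spread between replicates was 1.67% of the mean. Whether the replicates are separate cultures is not in the labels, and each p-value therefore rests on library-to-library spread alone, part or all of which may be technical. Sums of cell type markers are given in CPM of the library's total, without TMM scaling. The 7 B-cell markers summed to between 5030 and 5070 CPM in the DMSO libraries and between 3660 and 3680 CPM with FX1. Sums for other lineages were far lower. The 10 T and NK markers summed to at most 8.48 CPM, with CD2 and CD8A at 0. The 8 myeloid markers reached at most 6.84 CPM, with S100A8 and S100A9 at 0. The 8 epithelial and stromal markers reached at most 19 CPM, with KRT18, KRT19 and COL3A1 at 0. The 3 erythroid markers reached at most 0.196 CPM, with HBA1 at 0. Not every marker was near the floor of detection: on the same scale COL1A1 averaged 12.8 CPM in DMSO and 17.3 CPM in FX1. ITGAM averaged 1.95 and 5.36 CPM, and CD3D 2.6 and 1.04 CPM, in DMSO and FX1. The myeloid sum lay between 2.59 and 3.66 CPM in DMSO and between 6.4 and 6.84 CPM in FX1, the epithelial and stromal sum between 12.6 and 13.7 CPM and between 17.1 and 19 CPM, and the T and NK sum between 6.73 and 8.48 CPM and between 3.28 and 3.86 CPM; their part in the results was not tested. Genes not annotated as protein-coding took 4.25% ± 0.027 of the counts in DMSO and 4.8% ± 0.0236 in FX1, and the mitochondrial genome took 4.76% ± 0.0641 and 5.09% ± 0.0372 (mean ± SD, n = 3).

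Most of the genes tested were called between FX1 and DMSO, more often for small changes than for large ones. Of the 17859 genes tested, 12138 (68%) were called, 6011 (33.7%) higher and 6127 (34.3%) lower with FX1, and in 12431 genes (69.6%) the 3 FX1 libraries and the 3 DMSO libraries did not overlap. Of the called genes, 6529 (53.8%) changed by less than 1.5-fold. At 2-fold or more, 1144 called genes were higher and 1615 lower, and at 4-fold or more 229 and 404. Protein-coding genes were balanced at 2-fold, with 621 higher and 631 lower of 11726 tested, while genes not annotated as protein-coding leaned to lower values, with 478 higher and 914 lower of 5840 tested. Of the 11726 protein-coding genes, 4815 were called higher and 4389 lower, larger shares than over all genes tested. Since the calls cover so much of the transcriptome, the counts for each gene group below are read against these shares.

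Among called protein-coding genes that averaged 3 or more in log2 CPM, the largest rise was in CRIM1 (hg38 chr2:36355778-36551135), which encodes a membrane protein with cysteine-rich repeats that binds bone morphogenetic proteins. Its level was 7.11, 8.28 and 7.39 CPM in the 3 DMSO libraries and 246, 247 and 242 CPM in the 3 FX1 libraries, a log2 change of 5.0 ± 0.037. SLCO2B1 (hg38 chr11:75100563-75206549), an organic anion transporter of the plasma membrane, was at 6.18, 6.22 and 6.02 CPM in DMSO and 157, 156 and 164 CPM in FX1, a change of 4.69 ± 0.047. In both genes every FX1 library stood far above every DMSO library, and the libraries of a group lay close together. The next rises by size were SQSTM1 and NQO1, described with the oxidative stress genes below, then EID3 (2.65), COL24A1 (2.32), SH3TC1 (2.23), CRTC1 (2.05), PLXNA1 (1.86), SLC48A1 (1.86), ZNF276 (1.84) and MAP1A (1.79). CRTC1 is a coactivator of CREB, PLXNA1 is a semaphorin receptor and SLC48A1 carries haem out of endosomes and lysosomes.

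By the same rule the deepest fall was in PFKFB4 (hg38 chr3:48517684-48562015), whose enzyme sets the level of fructose 2,6-bisphosphate, an activator of glycolysis. It went from 227, 232 and 226 CPM in DMSO to 16.2, 17.2 and 16.1 CPM in FX1, a log2 change of -3.79 ± 0.035. The AP-1 subunit FOS was at 55.3, 60.3 and 52.7 CPM in DMSO and 5.02, 4.44 and 3.99 CPM in FX1, a change of -3.61 ± 0.065. FOSB, its paralogue, fell from 105, 110 and 109 CPM to 10.7, 10.2 and 9.14 CPM, a change of -3.41 ± 0.045. CHI3L2, a secreted chitinase-like protein (hg38 chr1:111200771-111243440), had 774, 775 and 766 CPM in DMSO and 110, 108 and 107 CPM in FX1, a change of -2.83 ± 0.017. The groups did not overlap in any of these genes. RETREG1, a receptor for autophagy of the endoplasmic reticulum, fell by 2.69, TNNI1, a troponin subunit, by 2.25, and the protease gene TMPRSS3 by 2.17; DDIT4, CCL22, HMGCS1, EGR1 and ALDOC complete the 12 largest falls and are given with their pathways.

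**Figure D1:**
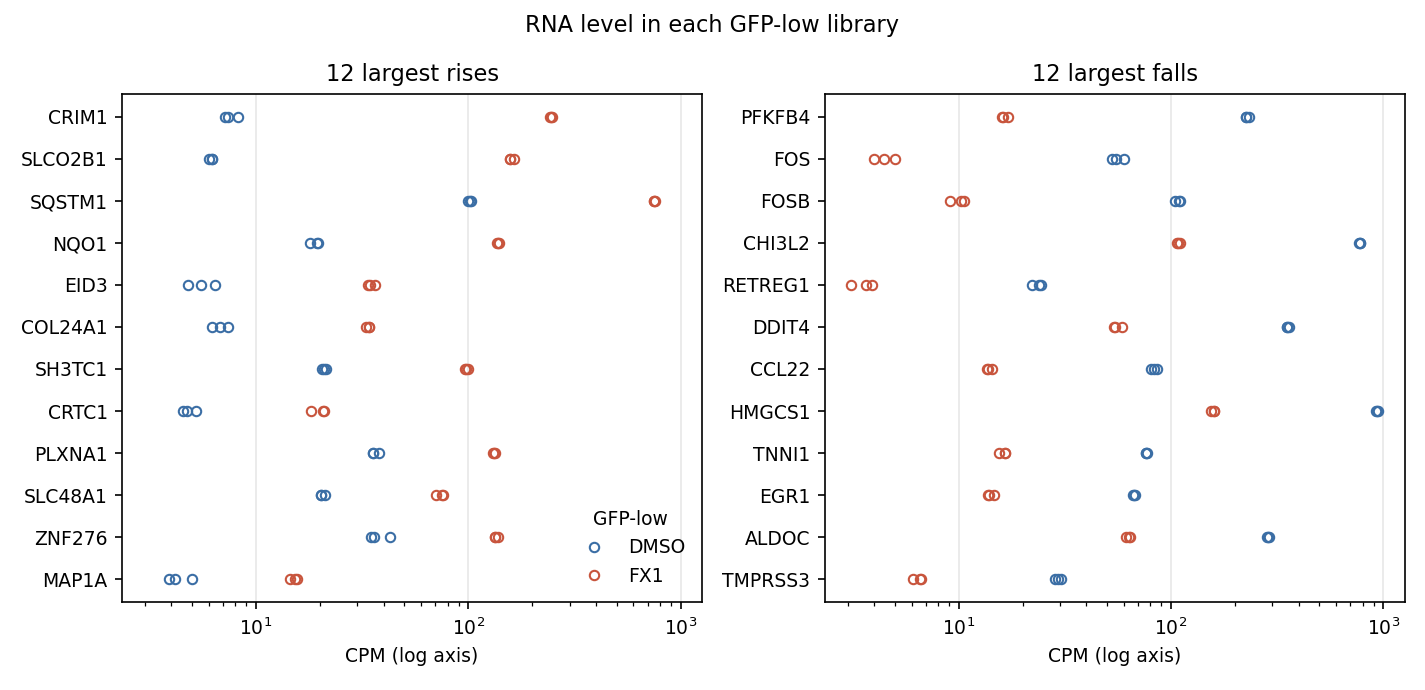
RNA level (CPM, log axis) in each of the 3 DMSO (blue) and 3 FX1 (red) GFP-low libraries for the 12 protein-coding genes with the largest rises and the 12 with the largest falls among genes that passed the test and averaged 3 or more in log2 CPM. In every row the 3 red and the 3 blue points form separate groups, widest apart for CRIM1 at 245 ± 2.83 against 7.6 ± 0.608 CPM (mean ± SD, n = 3).

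Among genes not annotated as protein-coding, LUCAT1 rose most and OLMALINC fell most. OLMALINC, a long noncoding RNA next to the desaturase gene SCD, was at 61.5, 60.5 and 58.1 CPM in DMSO and 11.4, 11.4 and 11.1 CPM in FX1, a log2 change of -2.41 ± 0.053. The antisense gene VPS9D1-AS1 (1.91), LINC00205 (1.63) and the immunoglobulin segment IGHV5-78 (1.52) were the next to rise. A U3 small nucleolar RNA gene fell by 2.20, LINC01814 by 1.99 and HCP5, which lies among the MHC class I genes, by 1.75. U3 genes exist in near-identical copies and the strand setting of the counting is not given in the sources used here, so the U3 value and that of VPS9D1-AS1 may include reads of a copy or of the gene on the other strand.

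The target of FX1 and the genes nearest to it moved in different directions. BCL6 RNA (hg38 chr3:187721377-187745725) was at 345, 343 and 328 CPM in DMSO and 216, 212 and 226 CPM in FX1, a log2 change of -0.64 ± 0.018. PRDM1, the plasma cell regulator BLIMP1 and a well-known target of BCL6 repression, stood at 38.4, 37.7 and 38.7 CPM in DMSO and 125, 122 and 126 CPM in FX1, a change of 1.70 ± 0.034. All FX1 libraries were below all DMSO libraries for BCL6 and above them for PRDM1. The other plasma cell factors did not move with PRDM1. IRF4, which acts with BLIMP1 in plasma cells, fell from 15.8, 16.7 and 14.6 CPM to 2.91, 3.6 and 3.4 CPM, a change of -2.28 ± 0.1, and XBP1, which expands the secretory apparatus, fell by 0.42. SPIB, a factor of mature B cells, rose by 0.93, the coactivator POU2AF1 fell by 0.84, and BACH2 (0.11) and PAX5 (-0.01) did not pass the test.

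A wider list of 25 genes described as BCL6-repressed did not share a direction. Of the 23 tested, 9 rose and 11 fell, with a median log2 change of -0.00. Over all genes tested 33.7% rose and 34.3% fell (4815 and 4389 of 11726 protein-coding genes), with a median of -0.01. A smooth trend on the GC content and length of transcripts was then removed from each library. After that, 9 of the listed genes rose and 13 fell, with a median of -0.29 beside 0.05 over all genes. Those with the lowest p other than PRDM1 all fell: CD69, an activation marker that retains lymphocytes in tissue, by 1.22, FCER2, the low-affinity IgE receptor CD23, by 1.38, and TNFAIP3, the A20 brake on NF-kB, by 1.05. Of the 16 tested genes for BCL6 corepressors and their partners, 12 rose and 2 fell, with a median of 0.26. BCORL1 (1.10), the BTB protein NACC1 (0.81), GPS2 (0.79) and BCOR (0.47) were among those that rose, and TBL1XR1, which links NCOR complexes to ubiquitin ligases, fell by 0.77. These genes are rich in G and C, and after the same trend was removed 6 rose and 5 fell, with a median of 0.04. SMARCA4 RNA was at 392, 392 and 401 CPM in DMSO and 455, 460 and 452 CPM in FX1, a change of 0.21 ± 0.015 that became -0.25 once the trend on GC content was removed, so no direction is given. A degron acts on the protein, so this RNA does not check the gate. The alternative ATPase SMARCA2 rose by 0.24 (0.31 with the trend removed).

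The NRF2 pathway held several of the largest rises. NRF2 (NFE2L2) is a transcription factor held in the cytoplasm and degraded by KEAP1 and CUL3. Electrophiles and oxidants modify KEAP1 and free NRF2, which then pairs with small MAF proteins on antioxidant response elements. The list has 23 genes, 17 of them tested; 13 rose and 3 fell, and the median change was 0.56. The receptor for selective autophagy SQSTM1, which also binds KEAP1, was at 103, 102 and 99.4 CPM in DMSO and 753, 755 and 753 CPM in FX1, a log2 change of 2.89 ± 0.018. The quinone reductase NQO1 rose from 19.6, 19.4 and 18.1 CPM to 137, 137 and 140 CPM, a change of 2.85 ± 0.036. In both genes the groups lay far apart and the 3 FX1 libraries were almost level. OSGIN1 (3.22), the sulfiredoxin SRXN1 (2.19) and the aldo-keto reductase AKR1C3 were far lower in level; AKR1C3 had 1.22, 1.01 and 1.28 CPM with FX1 and was at 0 in 2 of the 3 DMSO libraries, so its fold change is not given. The regulators changed less. NFE2L2 itself was at 74.5, 71.5 and 76.7 CPM in DMSO and 77.3, 80 and 80.2 CPM in FX1, a difference of 0.09 whose call was lost, at 0.07, without the second GFP-low DMSO library and, at 0.05, without any 1 of the GFP-high DMSO libraries, while KEAP1 rose by 0.95, MAFG by 1.00 and the competing repressor BACH1 by 0.55. MAFF, another small MAF gene, fell by 1.17.

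Antioxidant enzymes next to the pathway rose more often than they fell. Of 30 tested genes of glutathione, thioredoxin and NADPH supply (from 33 listed), 18 rose and 9 fell, the median being 0.35. At 2-fold or more 2 rose and 4 fell, and the values ran from -4.44 to 1.75. With the GC trend removed 16 rose and 11 fell, with a median of 0.19. Thioredoxin reductase TXNRD1 rose from 202, 200 and 201 CPM to 679, 680 and 675 CPM, a change of 1.75 ± 0.015, and its neighbour in the cycle TXNIP, which inhibits thioredoxin and glucose uptake, fell by 1.06. Both subunits of the enzyme that starts glutathione synthesis rose, GCLC by 0.87 and GCLM by 0.80. In each of these roles some genes rose and others fell: of 8 tested genes of NADPH supply 4 rose, among them the pentose phosphate enzyme TALDO1 (0.89), and 4 fell, with a median of -0.11. The ferritin heavy chain FTH1 went from 854, 842 and 823 CPM to 2454, 2477 and 2496 CPM, a change of 1.56 ± 0.012, and the light chain FTL rose by 1.08 ± 0.014; both genes have many processed pseudogenes whose reads the counting may share. The transferrin receptor TFRC, the gate of iron uptake, rose by 0.68, the haem carrier SLC48A1 by 1.86, and the last enzyme of haem synthesis, FECH, by 0.48, whereas ALAS1, which starts that pathway, was at 0.01 and did not pass the test. In all, 11 of 20 tested iron and haem genes rose and 4 fell.

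LUCAT1 (hg38 chr5:91054834-91314547, antisense) was at 12.7, 12 and 12.4 CPM in DMSO and 94.8, 92.1 and 91.6 CPM in FX1, a log2 change of 2.91 ± 0.046. It is known from earlier work as a long noncoding RNA that NRF2 activation raises. Its promoter, the 250 bases before the RefSeq start on the minus strand (GRCh38.p14 chr5:91314403-91314652), is shown 5′ to 3′ because it holds the core of the antioxidant response element, TGACNNNGC on either strand, in capitals.
LUCAT1: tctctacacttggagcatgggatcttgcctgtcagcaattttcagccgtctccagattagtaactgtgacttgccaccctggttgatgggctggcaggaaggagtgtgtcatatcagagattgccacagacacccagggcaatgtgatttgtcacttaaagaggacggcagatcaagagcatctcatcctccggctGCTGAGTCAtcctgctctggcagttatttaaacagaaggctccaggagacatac
This core was found in 11% of all 27305 RefSeq promoters of this length and in 1 of 15 promoters of the NRF2 list (6.67%), so most of the risen NRF2 genes do not have it in this window. A match is a match of letters and not a measured binding site.

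RNA levels fell across nearly the whole pathway of cholesterol synthesis. Its genes are activated by SREBP2, which is cut free in the Golgi when membrane sterol is low and held back by INSIG proteins when sterol is plentiful. All 9 genes of the mevalonate list were tested, 8 fell and none rose, with a median of -1.5, beside a median of -0.01 over all genes tested. HMGCS1, an early enzyme of the pathway, was at 924, 935 and 948 CPM in DMSO and 160, 154 and 159 CPM in FX1, a log2 change of -2.57 ± 0.016. The thiolase ACAT2 fell by 1.93, FDPS by 1.76, IDI1 by 1.5, MVD by 1.28 and MVK by 0.90, and PMVK (-0.02) was the member that did not pass the test. In the sterol branch 11 of 13 genes fell, MSMO1 by 1.77, HSD17B7 by 1.5, the squalene synthase FDFT1 by 1.36 and SQLE by 1.27, with a median of -0.82. The genes of sterol control and transport were mixed. SREBF2, which encodes SREBP2, fell by 0.28 and INSIG1, itself an SREBP target, by 1.56 ± 0.015, while SCAP, the SREBP escort, rose by 0.97 (0.52 with the GC trend removed). The exporter ABCA1 rose by 0.76 and its regulators NR1H3 and NR1H2, the liver X receptors, by 0.73 and 0.68.

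Fatty acid genes followed with smaller shifts, 11 of 16 tested falling and 5 rising, with a median of -0.50. The stearoyl-CoA desaturase SCD was at 1902, 1917 and 1910 CPM in DMSO and 663, 668 and 666 CPM in FX1, a change of -1.52 ± 0.012. ACLY, which supplies cytosolic acetyl-CoA, fell by 1.42, the desaturase FADS1 by 1.5 and ELOVL5 by 0.88, against falls of 0.41 in the synthase FASN and 0.36 in the carboxylase ACACA. ELOVL1 (0.62) and ACSL5 (0.55) rose. The HMGCS1 promoter (250 bases before the RefSeq start, minus strand, GRCh38.p14 chr5:43313413-43313662) is shown for its CCAAT boxes, the sites of NF-Y, a factor that works beside SREBP2; both are in capitals and lie on the other strand, so they read in reverse complement.
HMGCS1: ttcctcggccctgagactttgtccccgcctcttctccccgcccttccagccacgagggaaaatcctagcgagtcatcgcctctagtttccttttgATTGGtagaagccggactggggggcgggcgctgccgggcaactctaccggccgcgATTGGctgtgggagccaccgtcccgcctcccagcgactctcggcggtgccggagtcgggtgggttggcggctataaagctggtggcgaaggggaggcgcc
CCAAT on either strand occurred in 12 of 17 sterol synthesis promoters (70.6%), compared with 33% of all RefSeq promoters and 36.3% of the 9533 promoters of tested protein-coding genes. The sterol element searched as TCACNCCAC was in 0 of the 17, and in 0.875% of all promoters.

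RNA of genes for glucose use fell at most steps. Of 19 glycolysis genes 14 fell and 1 rose, the median being -0.60. The glucose transporter SLC2A3 fell by 2.15 and SLC2A1 by 0.94, the hexokinases HK2 and HK1 by 0.93 and 0.60, GPI by 1.04, ALDOC from 290, 286 and 285 CPM to 63.9, 63.6 and 61.1 CPM (-2.19 ± 0.024), PGK1 by 1.08 and ENO1 by 0.84. Lactate dehydrogenase A (LDHA) was at 1500, 1529 and 1546 CPM in DMSO and 495, 505 and 500 CPM in FX1, a change of -1.61 ± 0.013. PFKM rose by 0.42, and ALDOA (-0.04), PFKP (-0.02) and TPI1 (-0.00) did not pass the test. The switches around the pathway fell too: PFKFB3 by 1.55, and PDK1, which keeps pyruvate out of mitochondria, from 298, 286 and 300 CPM to 94.6, 95.5 and 90.3 CPM (-1.65 ± 0.022). PDK2 rose by 0.64.

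Targets of hypoxia-inducible factor outside glycolysis fell in 10 of 11 tested cases, with a median of -1.33, and none rose. DDIT4, an inhibitor of mTORC1, went from 358, 350 and 353 CPM to 54.5, 58.9 and 54.1 CPM, a change of -2.66. NDRG1 had 13.2, 13.2 and 10.9 CPM in DMSO and 0.133, 0.202 and 0.23 CPM in FX1 (-6.11 ± 0.19). The mitophagy receptor BNIP3L fell by 1.87, P4HA1, a collagen prolyl hydroxylase, by 1.53, and the histone demethylase KDM3A by 1.33, while VEGFA (0.03) did not pass the test. The 6 tested regulators of the pathway went both ways, 3 rising and 3 falling: EGLN1, an oxygen sensor, fell by 0.75, VHL by 0.15, and HIF1AN rose by 0.49. The DDIT4 promoter (plus strand, GRCh38.p14 chr10:72273674-72273923) is shown for the core of the hypoxia response element, ACGTG, in capitals.
DDIT4: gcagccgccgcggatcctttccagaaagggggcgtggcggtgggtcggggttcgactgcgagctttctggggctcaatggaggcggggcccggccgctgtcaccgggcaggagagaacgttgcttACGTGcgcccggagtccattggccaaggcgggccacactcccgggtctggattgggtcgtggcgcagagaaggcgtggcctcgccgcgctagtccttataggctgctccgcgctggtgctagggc
ACGTG on either strand occurred in 17 of 37 promoters of the glycolysis, PFKFB and hypoxia lists (45.9%). It was in 18.7% of all promoters and 23.7% of those of tested protein-coding genes. Among protein-coding genes that fell by 2-fold or more the rate was 21.5%. The lists also hold genes that rose or were not called.

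Ribosomal protein genes and ribosome assembly genes mostly moved in opposite directions. Of 80 tested cytosolic ribosomal protein genes 66 fell and 10 rose, by small amounts, with a median of -0.28 (-0.16 with the GC trend removed); RPL12 fell by 0.73 and RPS24 by 0.55. Of 25 assembly genes 21 rose and 3 fell, with a median of 0.33. The assembly factor BOP1 rose by 1.16, the RNA polymerase I subunit POLR1A by 0.67 and its activator UBTF by 0.63, while NPM1, the nucleolar chaperone, went from 1764, 1769 and 1807 CPM to 1161, 1152 and 1145 CPM (-0.63 ± 0.011). MYC, which drives ribosome assembly genes in Burkitt lymphoma, rose from 242, 239 and 231 CPM to 466, 458 and 456 CPM, a change of 0.95 ± 0.017, and the MAX-binding repressors MXD4 and MXI1 changed by 0.88 and -0.30.

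Genes of amino acid supply showed a similar contrast. Transporters rose in 10 of 14 cases and fell in 4, with a median of 0.31. SLC7A5, the large neutral amino acid carrier, went from 294, 297 and 283 CPM to 555, 561 and 552 CPM (0.93 ± 0.015), its heavy chain SLC3A2 rose by 0.83, and the cystine carrier SLC7A11 by 0.13. Of 20 aminoacyl-tRNA synthetases 15 fell and 4 rose (median -0.20), and of 12 serine and one-carbon enzymes 10 fell and 1 rose (median -0.27), led by MTHFD2 (-0.84) and PSAT1 (-0.73). Targets of the stress factor ATF4 fell in 6 of 7 cases, among them ASNS (-1.28), CHAC1 (-1.03) and CTH (-1.04), whereas the ATF4 transcript, at 303 and 298 CPM on average, did not pass the test. Chaperones of the cytosol rose in 10 of 14 tested cases and fell in 2, with a median of 0.46. HSPA1B was at 28.9, 32.4 and 32.9 CPM in DMSO and 90.6, 87.5 and 86.3 CPM in FX1 (1.49 ± 0.037), though reads may be shared with its near-identical copy HSPA1A. DNAJB1 (0.81), HSF1 (0.73) and DNAJA1 (0.59) rose, and the mitochondrial chaperonin HSPD1 fell by 0.32. Proteasome subunits rose in 28 of 41 tested cases and fell in 7, by a median of 0.15, with PSMC4 (0.82) and PSMD3 (0.54) ahead. Lysosomal genes rose in 15 of 17 tested cases with a median of 0.68, led by the cathepsin D gene CTSD (1.44) and CTSA (0.97).

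**Figure D2:**
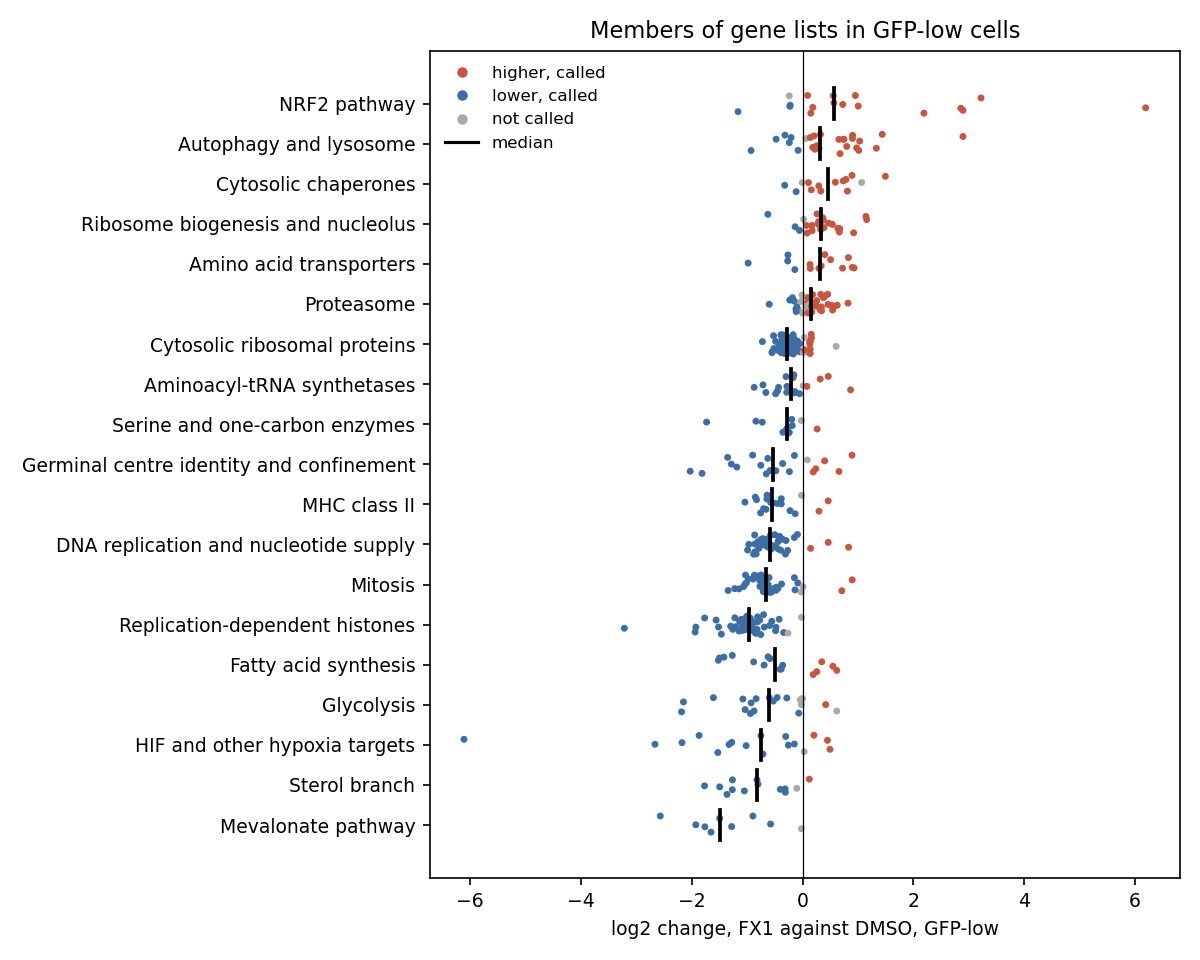
Log2 change with FX1 in GFP-low cells (horizontal axis) for every tested member of 19 gene lists, 1 point per gene, red where called higher, blue where called lower and grey where not called; the black bar is the list median. Mevalonate genes have a median of -1.5 and replication-dependent histones of -0.98, while the medians of the NRF2 list (0.56) and the cytosolic chaperones (0.46) lie to the right of 0.

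Cell division genes were lower in nearly every class. Replication-dependent histone genes, which are transcribed in S phase and end in a stem loop in place of a poly(A) tail, fell in 49 of the 51 tested cases (64 on the list), none rose, and 22 fell by 2-fold or more, with a median of -0.98. Their share of all counts was 0.581% ± 0.00818 in DMSO and 0.315% ± 0.00142 in FX1 (SD, n = 3). H2BC18 was at 179, 178 and 168 CPM in DMSO and 58.4, 61.9 and 65.1 CPM in FX1 (-1.52 ± 0.026); many histone genes have near-identical copies, so reads may be shared. Of 42 replication and nucleotide genes 39 fell and 3 rose, with a median of -0.59. Thymidylate synthase (TYMS) went from 64, 62.8 and 59.8 CPM to 32.2, 29.9 and 31.4 CPM (-0.99 ± 0.041), the ribonucleotide reductase subunits RRM2 and RRM1 fell by 0.86 and 0.70, and the clamp PCNA fell by 0.75. The helicase subunit MCM5 was an exception among the licensing genes, at 209, 217 and 217 CPM in DMSO and 383, 379 and 381 CPM in FX1 (0.83 ± 0.017), while its partner MCM4 fell by 0.65.

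Of 37 mitotic genes 33 fell and 2 rose, the median being -0.66; all 12 of the kinases and cyclins and all 17 of the spindle and chromosome genes on the list were among the falls. The mitotic kinase CDK1 went from 112, 115 and 114 CPM to 51.5, 50.6 and 51.8 CPM (-1.15 ± 0.03) and its partner cyclin A2 (CCNA2) from 136, 133 and 138 CPM to 52.2, 53.8 and 54.6 CPM (-1.34 ± 0.029). BUB1 fell by 1.03, MKI67 by 0.82 and TOP2A by 0.77. G1 regulators were mixed, 6 rising and 10 falling of 19 tested: CCNE1 rose by 0.77 and CCNE2 fell by 0.84, E2F2 rose by 0.78, and the inhibitor CDKN1B fell by 0.78. CDKN1A, the p21 gene that BCL6 can repress, fell by 0.28.

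The promoters of CDK1 (plus strand, GRCh38.p14 chr10:60778081-60778330) and H2BC18 (minus strand, GRCh38.p14 chr1:149812371-149812620) are shown to set the letters of a mitotic gene beside those of a histone gene. Capitals mark CCAAT, and in CDK1 also TTTGAA, the core of the element that cell-cycle repressor complexes bind.
CDK1: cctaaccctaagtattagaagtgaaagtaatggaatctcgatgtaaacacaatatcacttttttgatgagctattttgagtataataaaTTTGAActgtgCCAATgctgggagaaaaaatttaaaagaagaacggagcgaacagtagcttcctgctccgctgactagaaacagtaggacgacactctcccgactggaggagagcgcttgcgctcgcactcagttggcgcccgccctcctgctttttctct
H2BC18: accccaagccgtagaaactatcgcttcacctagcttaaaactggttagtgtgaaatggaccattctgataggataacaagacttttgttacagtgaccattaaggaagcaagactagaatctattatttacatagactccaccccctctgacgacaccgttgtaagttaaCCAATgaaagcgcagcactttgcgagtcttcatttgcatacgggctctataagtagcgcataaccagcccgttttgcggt
CCAAT occurred in 22 of 32 mitotic promoters (68.8%), 39 of 46 histone promoters (84.8%) and 20 of 37 replication promoters (54.1%), compared with 33% of all. TTTGAA occurred in 17 of 32 mitotic promoters (53.1%) and 13.6% of all. Across protein-coding genes that fell by 2-fold or more, 36.5% had CCAAT, beside 36.3% of all tested protein-coding genes, and 13.8% had TTTGAA, beside 8.97%.

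The BCL2 family changed by function. The 5 tested genes that protect against cell death all fell, with a median of -0.50: MCL1 went from 328, 330 and 328 CPM to 231, 235 and 231 CPM (-0.50 ± 0.017), BCL2 fell by 0.57, BCL2A1 by 0.85, BCL2L1 by 0.30 and BCL2L2 by 0.16. The BCL2L2 call was lost when any 1 of the FX1 libraries of either gate or the first GFP-low DMSO library was left out, with no filter on low counts and with DESeq2, at values between -0.17 and -0.11. The effectors BAX and BAK1, which perforate mitochondria, rose by 0.47 and 0.71. Among 8 BH3-only genes, which trigger the effectors, 6 rose and none fell. BMF was at 50.9, 48.6 and 51.2 CPM in DMSO and 100, 97.7 and 97.8 CPM in FX1 (0.98 ± 0.034), HRK rose by 0.88, BID by 0.84, BAD by 0.51 (0.11 and not called with the GC trend removed) and PMAIP1 by 0.42, while BCL2L11 (0.03) and BIK (0.05) did not pass the test. The sixth, BBC3, rose by 0.47 but was at -0.10 once the GC trend was removed.

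RNA of B-cell identity genes was lowered in part. Of 26 B-lineage transcription factors 16 fell and 4 rose, with a median of -0.20, and of 20 tested genes of germinal centre identity and confinement 14 fell and 5 rose, with a median of -0.53. RGS13, which dampens chemokine receptor signalling in the germinal centre, went from 299, 295 and 304 CPM to 74.9, 73.4 and 70.1 CPM (-2.03 ± 0.021). MYBL1 fell by 2.01, LMO2 from 39.2, 39.4 and 38.8 CPM to 10.9, 11.2 and 11.4 CPM (-1.81 ± 0.059), GCSAM by 1.29 and the signalling phosphatase PTPN6 by 1.19. GNA13 and S1PR2, which confine cells to the germinal centre, fell by 0.75 and 0.36. CXCR4, the dark-zone chemokine receptor, moved the opposite way, from 81.2, 80.2 and 79.7 CPM to 151, 150 and 146 CPM (0.89 ± 0.028), as did SERPINA9 (0.66).

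Among B-cell receptor genes 12 fell and 9 rose of 25, with a median of -0.07. The shares over all genes tested were 34.3% and 33.7% (4389 and 4815 of 11726 protein-coding genes). The kinases and adaptors on the receptor list split into 6 falls and 5 rises. With the GC trend removed 15 of the 25 fell and 6 rose, with a median of -0.20. The complement receptor CR2 (CD21) went from 452, 445 and 450 CPM to 139, 135 and 132 CPM (-1.73 ± 0.017), the inhibitory receptor CD22 from 771, 774 and 765 CPM to 353, 357 and 350 CPM (-1.12 ± 0.014), and MS4A1 fell by 0.61, while CD79B rose by 0.42. Of 8 immunoglobulin and assembly genes 3 rose and 4 fell. IGHM, the mu heavy chain, rose from 2444, 2458 and 2391 CPM to 3742, 3806 and 3789 CPM (0.64 ± 0.01) and IGKC by 0.51. VPREB3, a surrogate light chain relative of immature B cells, fell from 21.3, 17.8 and 17.8 CPM to 2.53, 2.89 and 2.29 CPM (-2.87 ± 0.099), and JCHAIN fell by 0.49 (-0.01 and not called with the GC trend removed).

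Signalling genes with immediate early kinetics were among the lowest with FX1. Beside FOS and FOSB, EGR1 went from 67, 67.6 and 66.2 CPM to 14.6, 13.9 and 13.8 CPM (-2.24 ± 0.048), EGR2 fell by 3.1 from an average of 3.27 CPM, JUN by 1.54 and NR4A1 by 1.15. BATF, an AP-1 partner of IRF4, rose by 1.27, and JUNB (-0.03) did not pass the test. The MAP kinase phosphatase DUSP1 fell by 1.94 and DUSP5 rose from 40, 39.8 and 39.7 CPM to 112, 110 and 106 CPM (1.46 ± 0.034). Of 13 tested chemokine and cytokine genes 8 fell and 5 rose. CCL22, which attracts CCR4-bearing T cells, went from 86, 83.1 and 80.4 CPM to 13.7, 14.4 and 13.5 CPM (-2.58), CCL17 fell by 3.05 from an average of 1.65 CPM, IL10 by 1.67 and CCL5 by 1.53. CCL3, a chemokine of activated B cells that BCL6 is known to repress, rose from 12.4, 12.6 and 13.3 CPM to 25.3, 24.1 and 24.8 CPM (0.96 ± 0.059), and CCL4 by 1.13. In the NF-kB list 8 of 14 rose and 4 fell, but REL (-0.85) and BIRC3 (-1.13) were among the falls, and the median of 0.12 became -0.09 with the GC trend removed. The costimulatory genes CD83 and CD86 rose by 1.04 ± 0.02 and 1.01 ± 0.03, while the BAFF receptor TNFRSF13C fell by 0.66 and CD70 by 0.54.

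Antigen presentation genes mostly fell in class II and went both ways in class I. Class II, which presents peptides to CD4+ T cells, fell in 15 of 18 genes and rose in 2, with a median of -0.55. HLA-DRA was at 1176, 1184 and 1173 CPM in DMSO and 649, 654 and 652 CPM in FX1 (-0.85 ± 0.012), the invariant chain CD74 went from 2586, 2594 and 2580 CPM to 1663, 1646 and 1667 CPM (-0.64 ± 0.011), and HLA-DOB, which slows peptide exchange, from 12.2, 11.8 and 10.5 CPM to 6.17, 4.88 and 5.55 CPM (-1.04 ± 0.098). The class II transactivator CIITA fell by 0.14 and the RFX subunits that hold it at promoters went both ways, RFX5 by -0.23, RFXAP by -0.52 and RFXANK by 0.46. Class I rose in 9 of 15 genes and fell in 3: the peptide transporters TAP1 and TAP2 rose by 0.79 ± 0.036 and 0.76 ± 0.027, HLA-E and HLA-F fell by 0.59 and 0.66, and HLA-B (0.04), HLA-C (0.00) and B2M (-0.03) did not pass the test. With the GC trend removed 7 class I genes rose and 5 fell, and the median was 0.14 in place of 0.12. HLA genes are polymorphic and similar to each other, so their reads may be shared. Interferon response genes rose in 13 of 19 tested cases and fell in 1, with a median of 0.25, from low levels: OAS1 was at 1.72, 2.06 and 1.86 CPM in DMSO and 4.24, 4.98 and 5.14 CPM in FX1 (1.32 ± 0.17), and IFIT2 and IFIT3 rose by 1.23 and 1.10. The HLA-DOB promoter (minus strand, GRCh38.p14 chr6:32817003-32817252) is shown because it has the deepest fall of the class II promoters that hold CCAAT, the Y box of class II genes, in capitals on either strand.
HLA-DOB: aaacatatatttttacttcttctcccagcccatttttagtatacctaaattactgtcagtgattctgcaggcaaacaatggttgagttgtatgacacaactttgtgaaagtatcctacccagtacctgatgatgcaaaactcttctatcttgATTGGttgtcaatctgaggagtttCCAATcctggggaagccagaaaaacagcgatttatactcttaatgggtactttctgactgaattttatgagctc
CCAAT was present in 12 of 15 class II promoters (80%).

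Chromatin genes moved in both directions. Of 26 SWI/SNF subunit genes 17 rose and 6 fell, with a median of 0.24, or 13 and 9 with a median of 0.11 once the GC trend was removed; ARID1A rose by 0.51, DPF2 by 0.50 and ARID1B by 0.40. Among 30 histone and DNA modifiers 16 rose and 11 fell. The methyltransferase SETD1B rose from 52.6, 49.5 and 50 CPM to 145, 144 and 143 CPM (1.5 ± 0.03) and KMT2D, often mutated in lymphoma, from 276, 275 and 277 CPM to 486, 490 and 474 CPM (0.81 ± 0.016), while DNMT1 fell by 0.54.

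The change with FX1 went with base composition. Over 9382 genes that averaged 3 or more in log2 CPM and have a transcript of known GC content, that content and the log2 change had a Spearman rho of 0.531, given as a description since genes of the same libraries are not independent. The 4390 tested genes with at most 41.7% GC had a median change of -0.246, with 642 higher and 2344 lower, and the 4390 with at least 55.2% GC had a median of 0.354, with 2467 higher and 817 lower. After a smooth trend on GC content and transcript length was removed from each library, 9381 of the 11964 calls that had a value were kept in direction, 2030 were lost and 553 turned. Of 2644 called changes of 2-fold or more, 2471 were kept and 0 turned. The median change ran only from -0.349 to 0.64 across bins of GC content. A trend of that size is too small to turn most 2-fold changes, so the 0 was likely from the start. The part of base composition in these changes was not tested. With the trend removed, 13 named genes that did not pass the test passed it: ALDOA (-0.18), ATF4 (-0.19), HLA-B (-0.17), HLA-C (-0.34), JUNB (-0.44), PAX5 (-0.25), PFKP (-0.26), PMVK (-0.22), TPI1 (-0.17) and VEGFA (-0.23) as falls, and B2M (0.25), BCL2L11 (0.03) and HSPA5 (0.05) as rises. The median changed sign for genes of NF-kB subunits and feedback (0.12 to -0.09), of SREBP regulation and sterol transport (-0.07 to 0.09), of cytokine receptors with JAK and STAT (0.00 to -0.07) and of the mitochondrial genome (-0.03 to 0.25). The medians of sterol, glycolytic, histone, mitotic and NRF2 genes kept their sign.

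**Figure D3:**
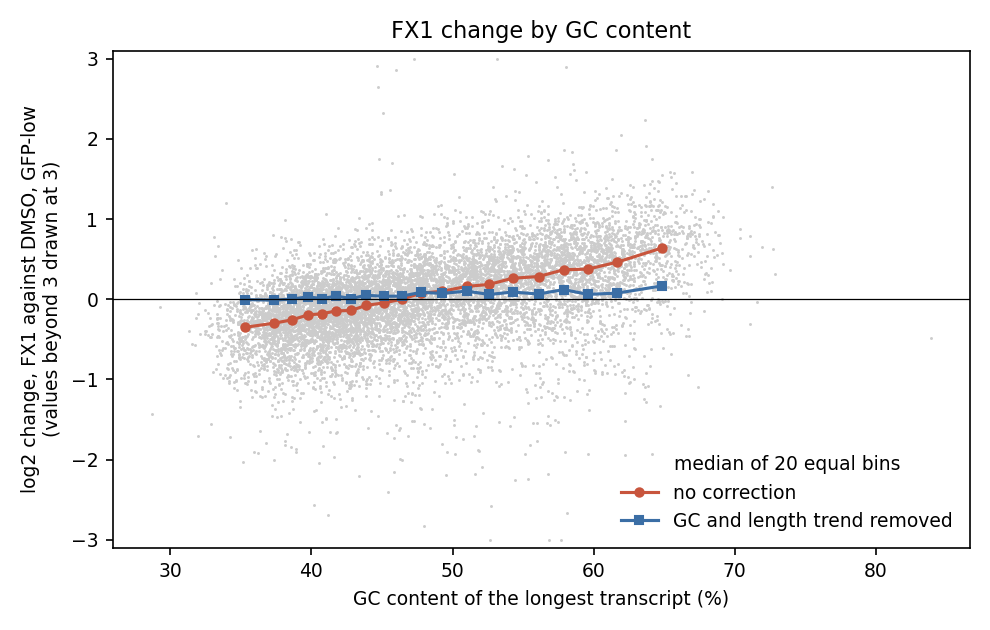
Log2 change with FX1 in GFP-low cells against the GC content of the longest transcript, 1 grey point per gene of those 9382 (values beyond 3 are drawn at 3), with the median of 20 equal bins before (red circles) and after (blue squares) a trend on GC content and length was removed. The red medians run from -0.349 at 35.3% GC to 0.64 at 64.8% GC, and the blue ones from -0.004 to 0.167 in the same bins.

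The FX1 effect in GFP-low cells was then set against that in GFP-high cells, which share no library with it. The difference of the effects (GFP-low minus GFP-high) was called for 5583 of 17859 genes (31.3%), 2636 positive and 2947 negative; it reached 2-fold in 427 genes, 280 positive and 147 negative, and 575 genes were called in opposite directions in the GFP-low and GFP-high gates. The split depends on scaling: when mitochondrial genes and any gene that took more than 1% of a library were left out, 2014 differences were positive and 3617 negative. The genes that led the GFP-low response also moved far in GFP-high cells: CRIM1 changed by 4.96 there, with a difference of 0.05 that did not pass the test, and PFKFB4 by -4.03, with a difference of 0.24 that passed it. BCL6 fell less in GFP-low cells (-0.64) than in GFP-high cells (-1.01), a difference of 0.36, and PRDM1 rose less (1.70 against 2.04), a difference of -0.34, both called by edgeR's quasi-likelihood test with Benjamini-Hochberg adjusted p of 6.2e-32 and 1.3e-07.

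The chemokine genes CCL3, CCL4L2 and CCL3L3 rose less in GFP-low cells, by 0.96, 0.91 and 0.73 against 2.43, 2.25 and 1.82 in GFP-high cells; the last pair are copies of CCL4 and CCL3 in a variable cluster, so reads may be shared. CCL3 averaged 12.8 CPM in GFP-low DMSO and 24.7 CPM in GFP-low FX1, and 16.2 and 87.2 CPM in the GFP-high groups. A second set fell by more in GFP-low cells: CD69 went from 42.7, 42.5 and 40.5 CPM to 18, 17.9 and 17.9 CPM (-1.22) against -0.13 in GFP-high cells, TMED7, a cargo receptor of the secretory pathway, from 87.5, 82.1 and 84.6 CPM to 35.7, 36.5 and 31.2 CPM (-1.28 against -0.17), LYPLA1, a depalmitoylase, from 333, 332 and 329 CPM to 162, 160 and 155 CPM (-1.05 against 0.01), and IER3IP1 by 1.12 (against -0.09). PCLAF, which binds PCNA at replication forks, fell by 1.97 in GFP-low and by 0.81 in GFP-high cells. MAP1A rose by 1.79 in GFP-low and by 0.62 in GFP-high cells. FOS and FOSB fell less in GFP-low cells, where their DMSO levels, 56.1 and 108 CPM, were below the 83.9 and 159 CPM of GFP-high DMSO.

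Transcripts of the mitochondrial genome, which encode core subunits of the respiratory chain, were among the largest positive differences. All 13 had a positive difference, while within GFP-low cells 5 rose and 6 fell, with a median of -0.03 (0.25 with the GC trend removed). MT-CO2 was at 4153, 4183 and 4293 CPM in GFP-low DMSO and 4443, 4346 and 4373 CPM in GFP-low FX1, against 8357 ± 29 CPM in GFP-high DMSO and 3624 ± 68.1 CPM in GFP-high FX1 (mean ± SD, n = 3). GFP-high DMSO was the highest of the 4 groups; its part in the difference was not tested. Histone genes were on the negative end, 45 of 51 with a called negative difference, from a median of -0.46 in GFP-high cells to -0.98 in GFP-low cells.

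**Figure D4:**
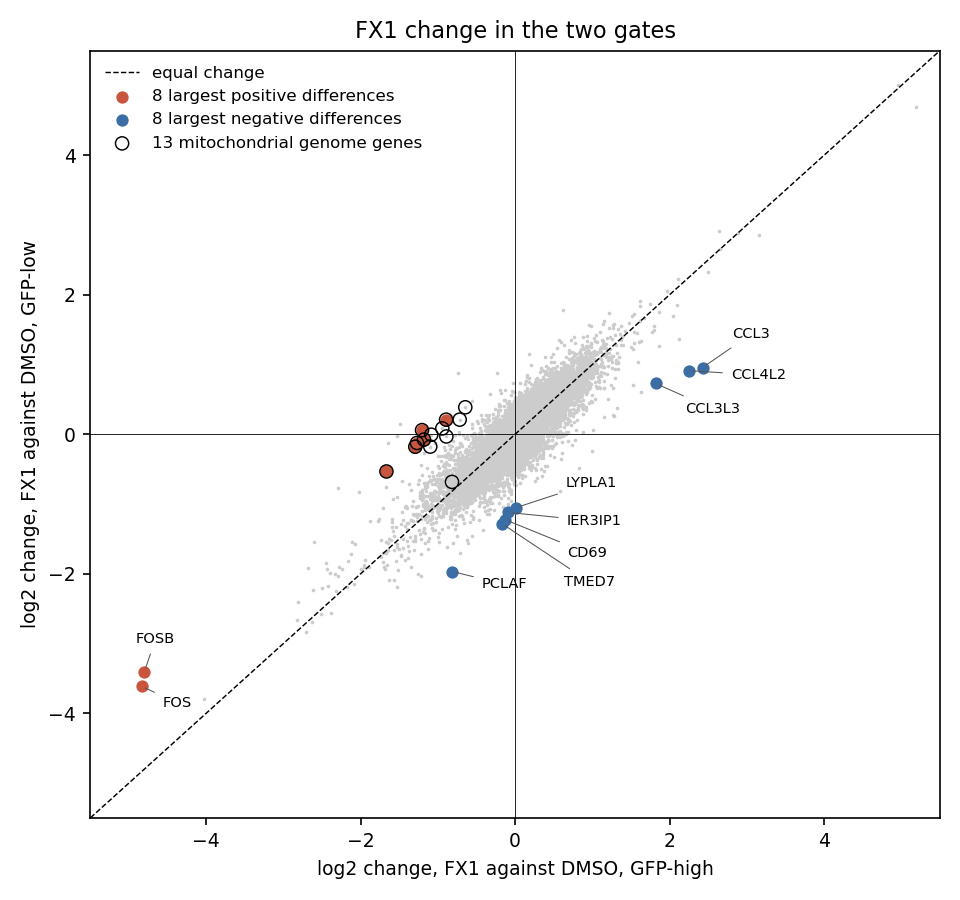
Log2 change with FX1 in GFP-low cells (vertical axis) against that in GFP-high cells (horizontal axis), 1 grey point per gene that averaged 3 or more in log2 CPM, with the dashed line marking equal change. Red and blue points are the 8 largest positive and 8 largest negative called differences among protein-coding genes, and rings mark the 13 mitochondrial genome genes, which lie left of the line around a median GFP-high change of -1.09.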

How the data were processed

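RNA from 12 Raji samples was extracted with the RNeasy Plus Micro Kit and made into libraries with the KAPA RNA HyperPrep Kit with RiboErase, per the labels' protocols. The authors deposited raw read counts per gene, which rest on FastQC, STAR and featureCounts of Subread, with R 4.2.1 and the build hg38, per the submitters' processing notes; the versions of the aligner and counter, the annotation and the strand setting are not given in the sources used here. Of 60710 lines, 3 broken records were left out. Symbols were matched by gene ID from a reference table of gene names and covered 99.6% of the genes. Gene types, transcript lengths and GC content came from GENCODE, with a type for 96.19% of the genes.

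Counts were analysed with edgeR 4.0.16 (TMM, filterByExpr, robust glmQLFit, 1 term per group over 4 groups of 3, 8 residual degrees of freedom) and adjusted by Benjamini-Hochberg over 17859 genes; the threshold was 0.05. CPM are TMM-scaled. The script was tested on simulated data. Alternatives were DESeq2 1.42.0 and its size factors, other filters, a floor of 1.5-fold, a replicate block, a correction for GC content and length, other libraries and genes left out. Named genes were the 12 largest rises and falls averaging 3 or more in log2 CPM, 4 of each among noncoding genes, the marked members of each of 57 lists with its 4 lowest p among calls (any member of lists of at most 20 tested), the 8 largest gate differences each way, and SMARCA4, SMARCA2, BCL6 and PRDM1. The 57 lists hold 1780 entries in the table, 1540 of them tested. The comparison, its lists, its motifs and the promoters shown were chosen with earlier results of these data known. Promoters are RefSeq's for GRCh38.p14, 250 bases before each start, searched for 5 motifs on both strands.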

Additional observations from a re-analysis of the deposited data

Results flagged for a closer look

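Of the 427 genes that meet this rule only those named in the report are listed: they are given because edgeR's test of the difference between the FX1 effect in GFP-low and in GFP-high cells was called and the difference (GFP-low minus GFP-high, log2) was at least 2-fold. Negative differences were found for CCL3 (-1.47), CCL4 (-1.36), CCL4L2 (-1.34), PCLAF (-1.16), TMED7 (-1.11), CCL3L3 (-1.09), CD69 (-1.09), LYPLA1 (-1.06) and IER3IP1 (-1.03). The 4 chemokine genes lie in a single cluster and may share reads. Positive differences were found for FOSB (1.39), EGR2 (1.38), FOS (1.23) and MAP1A (1.17), and for the mitochondrial genes MT-CO2 (1.26), MT-ATP6 (1.15), MT-ATP8 (1.13), MT-ND4L (1.11), MT-ND4 (1.10) and MT-ND5 (1.10). For FOS, FOSB and the mitochondrial genes named here the GFP-high DMSO level was the highest of the 4 groups. The part of those libraries in the differences was not tested.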

How the results depend on the processing

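The number of genes called in GFP-low cells (12138) stayed between 10229 and 12293 under every alternative except a test against a floor of 1.5-fold, which called 3606 genes, 1640 higher and 1966 lower; for the gate difference (5583) the range was 4730 to 5631, and the floor called 151 genes, 66 positive and 85 negative. The floor asks for more than a difference from 0, and most called changes were under 1.5-fold. With 1 library left out the counts ran from 11440 to 12293 and from 5167 to 5432, and without any 1 of the GFP-high DMSO libraries between 33.5% and 34.4% of the gate differences were positive, beside 47.2% with all libraries (35.8% without mitochondrial genes and any gene over 1% of a library). With the GC and length trend removed, 11560 and 4941 genes were called. The replicate number as a block gave 12101 and 5536. Deviations of GFP-low libraries with the same number correlated by -0.0041, 0.0204 and 0.00893. The spread between replicates was small, so these values cannot show whether the numbers mark a shared culture or day. No named gene's call changed under the replicate block alone.

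Of 262 named genes, 2 reversed, both with the GC and length trend removed: SMARCA4 at -0.25 (-0.25 with the replicate block added) and BBC3 at -0.10 (-0.10 with the replicate block added). The floor of 1.5-fold was left out of this check on named genes, named gate differences and lists. In 21 genes a call or its direction changed under some other setting. Apart from the GC trend these were NFE2L2, BCL2L2, MT-CO2, ATF4, B2M, BCL2L11, HLA-B, HSPA5, JUNB, PAX5, PFKP and TPI1, all within 0.16 of 0, and CYP1A1, at 1.39, whose call was lost at 1.20 without the first GFP-low DMSO library. The 314 values of the 16 named gate differences all kept their direction and call. Since the 16 were picked as the largest called differences in these data, that outcome was likely from the start. The mitochondrial genes among the 16 had no value where such genes were left out. Of 56 lists 5 had a count that moved: with the GC trend removed 1 mitochondrial gene fell in place of 6 and 6 BCL6 corepressors rose in place of 12, and a filter of 50 counts in 3 libraries left 1 AHR gene rising in place of 3. The cause of these shifts was not tested. Depth limits genes under about 1 CPM, whose values rest on few counts.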

Other observations

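Targets of p53 went both ways, 9 rising and 10 falling of 19 tested, with a median log2 change of -0.20. The nucleotide excision repair gene DDB2 fell from 92.8, 99.1 and 94.6 CPM to 26.3, 24.4 and 26.3 CPM (-1.90 ± 0.039) and the cyclin G1 gene CCNG1 from 225, 232 and 237 CPM to 71.2, 71.8 and 75.1 CPM (-1.68 ± 0.023). BTG2, an antiproliferative gene, rose by 0.80, AEN by 0.71 and the death receptor gene TNFRSF10B by 0.40, whereas MDM2, which encodes the ligase that degrades p53, fell by 0.23. Folding genes of the endoplasmic reticulum fell in 9 of 17 cases and rose in 5; CANX fell by 0.56 and PDIA6 by 0.66, HYOU1 rose by 0.38 and HSPA5 (0.02) did not pass the test. In cytokine signalling, 6 of 13 tested genes rose and 5 fell: the kinase PIM1 rose from 51.5, 48.8 and 50.4 CPM to 109, 105 and 109 CPM (1.10 ± 0.033), STAT6 by 0.58 and TYK2 by 0.64, and the interleukin-4 receptor gene IL4R and JAK3 fell by 0.69 and 0.59.

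Nuclear genes for the respiratory chain changed by less than 2-fold in every case, 38 rising and 21 falling of 75 (median 0.08), and mitochondrial ribosomal proteins were near even, 26 rising and 32 falling of 76 (median 0.00). Polycomb genes rose in 5 and fell in 8 of 15 cases, with SUZ12 at -0.70, EZH2 at -0.50 and RING1 at 0.51. Other remodeler ATPases rose in 8 and fell in 5 of 15 tested cases, with CHD7 at 0.63, INO80 at 0.48 and HELLS at -0.75. The zinc finger genes named ZNF rose in 137 and fell in 126 of 380 tested cases, with a median of 0.01. Over all genes tested 33.7% rose and 34.3% fell (4815 and 4389 of 11726 protein-coding genes). Targets of the aryl hydrocarbon receptor were scarce and low: AHRR averaged 0.356 CPM in DMSO and 1.21 CPM in FX1 (1.75), and CYP1A1 0.206 and 0.532 CPM (1.39).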
